A study of Mus musculus with 6 samples.

Results

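The EGF receptor family was taken here as 10 mouse genes, picked by name. No rule on their values was used, but earlier results of these data were known. They were the ligand genes Areg, Ereg, Egf, Tgfa, Btc, Hbegf and Epgn, and the receptor genes Egfr, Erbb2 and Erbb3. All 10 were found, each as a single row, among the 55487 genes of each count file. A filter on low counts kept 9 of them for testing, and Epgn did not pass it. The receptor gene Erbb4 and the neuregulin genes were described with the rest of the pathway.

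ErbB receptors are tyrosine kinases of the cell surface that pair up when a ligand binds. The EGF-like ligands are made as membrane-bound precursors and are cut free by ADAM proteases. Amphiregulin, EGF, TGF-alpha and epigen bind EGFR, while heparin-binding EGF, betacellulin and epiregulin bind EGFR and ERBB4. ERBB2 has no known ligand of its own, and ERBB3 binds neuregulins, has little kinase activity and signals mainly as the partner of ERBB2. The paired receptors pass the signal to RAS and ERK and to PI3K and AKT. In the gut, EGF is a standard supplement that keeps crypt stem cells and organoids growing.

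The data were raw RNA-seq counts from crypt cells isolated from the colon of C57BL/6 mice aged 4 weeks. All 6 libraries came from animals homozygous for the floxed M14 allele, read here as Mettl14, which encodes a subunit of the enzyme complex that writes N6-methyladenosine on messenger RNA. The 3 control libraries carried only that allele, M14(f/f), and the 3 mutant libraries were M14(f/f);Villin-Cre, in which the Villin promoter drives Cre in the epithelium of the gut. No Cre-only group was among the libraries, so effects of Cre and of Mettl14 loss cannot be told apart. By its title the study was about GsdmC methylation and the survival of Lgr5+ stem cells, and the comparison shown here asks how transcripts of the ErbB system differed between the genotypes.

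Library totals ran from 24181631 to 35183636 counts. Mettl14 itself stood at 26.2, 20.9 and 22.0 CPM (counts scaled to library size, with TMM factors) in controls and at 14, 13.8 and 10.5 CPM in mutants. Mutant 1 and mutant 2 stood apart in sex-linked genes. Xist had 16870 counts in mutant 1 and 1328 in mutant 2, against 44 to 55 in the other libraries. The summed counts of 4 Y-linked genes were 66 in mutant 1 and 4406 in mutant 2, against 7245 to 8843 elsewhere. No label gives the sex of the mice. By these counts mutant 1 had a female pattern, mutant 2 a mixed one and the other libraries a male one. Sex was thus not balanced between the genotypes, and whether mutant 2 came from a single animal was not tested. Log2 fold changes are therefore also given without both of these libraries. That leaves mutant 3 as the only mutant library, so only the effect size is given there. The labelled tissue matched its markers. The 8 epithelial genes, among them Epcam and Krt8, summed to 10132 to 11212 CPM in controls and 8409 to 9625 CPM in mutants. Of the epithelial genes 3 fell, Epcam and Krt8 included, 1 rose (Cdh1) and 4 did not pass. Among all tested genes 22.8% fell and 23.5% rose. Surface colonocyte genes summed to 8641 to 9815 CPM in controls and 4023 to 5131 CPM in mutants. Of these 6 genes 3 fell and 3 did not pass, and Car1 had the highest CPM of them, with means of 5613 ± 518 and 2076 ± 273 CPM. Goblet and deep crypt secretory genes summed to 15263 to 19896 and 8343 to 10347 CPM. Most of that was Muc2, with means of 14083 ± 2842 and 6296 ± 896 CPM.

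The ligand transcripts moved in opposite directions between the genotypes. Areg, Btc and Hbegf rose in mutants, and Egf, Tgfa and Ereg fell. Among the receptors Egfr rose, Erbb3 fell, and Erbb2 did not pass the test. Thus 8 of the 9 tested members passed at an adjusted p of 0.05, with 4 higher and 4 lower, where 46.3% of all 18539 tested genes passed, 23.5% higher and 22.8% lower. The groups did not overlap for any of the 9 members, against 56.9% of all tested genes, 28.7% higher and 28.2% lower. At a threshold of 0.01 on the adjusted p, 7 of the 9 passed, against 31.7% of all genes. Tested against a change of 1.5-fold, 3 passed (Areg, Egf and Tgfa), against 14.8% of all genes. The median absolute log2 fold change was 0.607 for the 9 members and 0.405 for all tested genes. In bulk RNA a lower level can reflect fewer cells of a type or less RNA per cell, and these cannot be told apart.

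**Figure D1:**
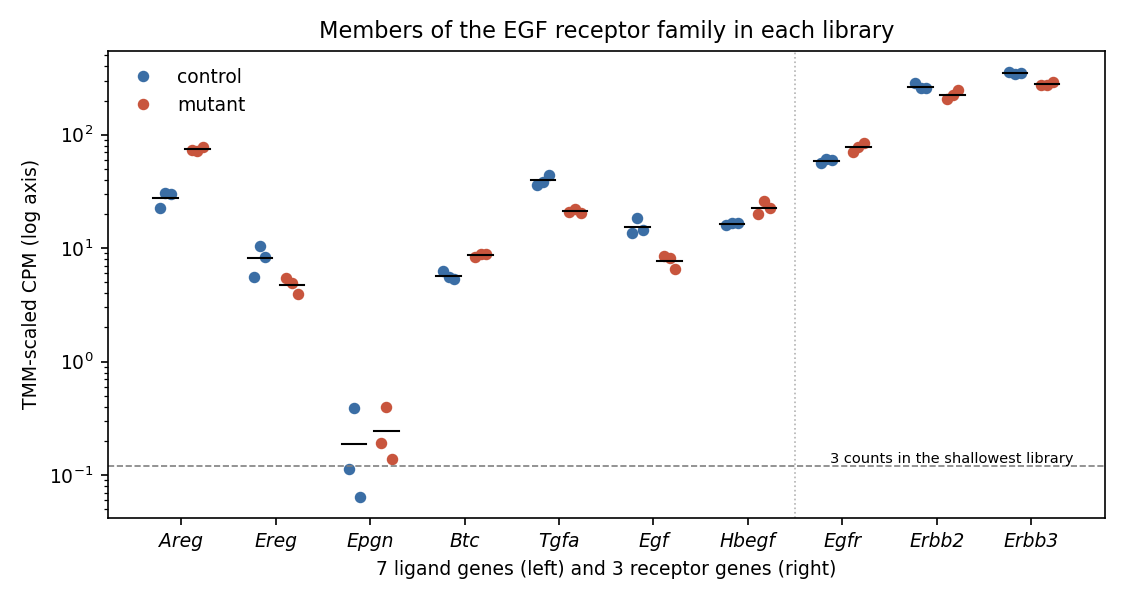
TMM-scaled CPM (log axis) of the 10 members in each of the 6 libraries, controls in blue and mutants in red, with a black line at each group mean. Areg shows the widest gap between the genotypes, with mutants at 72.2 to 78.5 CPM and controls at 22.7 to 30.5 CPM, while the groups overlap for Epgn, which lies near the dashed line of 3 counts.

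Areg encodes amphiregulin, an EGFR ligand known from epithelial repair. Its level was 22.7, 30.5 and 29.9 CPM in control 1, 2 and 3 and 73.9, 72.2 and 78.5 CPM in mutant 1, 2 and 3. Every mutant library lay far above every control library, and the mutants were close to one another. The means were 27.7 ± 4.34 and 74.9 ± 3.28 CPM (SD, n = 3 each), a 2.70-fold rise. The log2 fold change of mutant minus control was 1.43 (SE 0.11, adjusted p = 8.98e-06 by edgeR). It was 1.47 without mutant 1 and mutant 2.

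Btc encodes betacellulin and lies in the same gene cluster on chromosome 5 as Areg. It stood at 6.31, 5.55 and 5.32 CPM in controls and at 8.43, 8.84 and 8.91 CPM in mutants. All mutants lay above all controls, by a small margin set against Areg. The log2 fold change of Btc was 0.61 (SE 0.13, adjusted p = 0.00394), and 0.61 without mutant 1 and mutant 2.

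Hbegf encodes heparin-binding EGF-like growth factor, which also binds heparan sulfate at the cell surface. Controls held 15.9, 16.8 and 16.5 CPM and mutants 19.8, 25.8 and 22.6 CPM. The controls were tightly grouped, the mutants spread more, and every mutant was higher. Hbegf rose by 0.47 on the log2 scale (SE 0.1, adjusted p = 0.00459), and by 0.44 without mutant 1 and mutant 2. Its lowest value over single left-out libraries was 0.37.

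Tgfa encodes TGF-alpha, an EGFR ligand made by gut epithelium. It stood at 36.0, 38.6 and 44.3 CPM in controls and at 21, 21.9 and 20.3 CPM in mutants. The mutants lay within a narrow band well below the lowest control. Means were 39.6 ± 4.22 and 21.1 ± 0.809 CPM, and the log2 fold change of Tgfa was -0.91 (SE 0.09, adjusted p = 4.19e-05). Without mutant 1 and mutant 2 it was -0.99. In the same libraries 4 of 6 genes of goblet and deep crypt secretory cells fell, 1 rose and 1 did not pass. Reg4 fell, from 654 to 1396 CPM in controls to 131 to 321 CPM in mutants, and Tff3 rose, from 131 to 191 CPM to 243 to 300 CPM. Of 6 surface colonocyte genes 3 fell and 3 did not pass. Among all tested genes 23.5% rose and 22.8% fell. The part of these cell types in the fall of Tgfa was not tested.

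Egf, the gene of epidermal growth factor, had the largest fall of the members. Controls held 13.6, 18.5 and 14.4 CPM and mutants 8.47, 8.12 and 6.51 CPM. Control 2 was the highest library and mutant 3 the lowest, and no mutant reached a control. Means were 15.5 ± 2.6 and 7.7 ± 1.05 CPM, a difference of -1.01 on the log2 scale (SE 0.15, adjusted p = 0.000492). The difference was -1.28 without mutant 1 and mutant 2.

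Ereg, which encodes epiregulin, fell with more spread between libraries. Controls held 5.51, 10.5 and 8.29 CPM and mutants 5.45, 4.88 and 3.94 CPM. Control 1 and mutant 1 were nearly level, so the groups only just failed to overlap. Its log2 fold change was -0.77 (SE 0.24, adjusted p = 0.0225). Leaving out control 2 (-0.55, adjusted p = 0.0867), control 3 (-0.77, adjusted p = 0.0558) or mutant 3 (-0.64, adjusted p = 0.0797) ended this call. Without mutant 1 and mutant 2 its log2 fold change was -1.07.

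Epgn, which encodes epigen, was barely detected. Controls had 4, 13 and 2 counts and mutants 5, 10 and 5 counts, or 0.0645 to 0.386 CPM and 0.137 to 0.400 CPM. Both groups reached down to a few counts and overlapped, so no difference was detectable at this depth. When genes of low count were not filtered, its log2 fold change was 0.28 (adjusted p = 0.811).

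**Figure D2:**
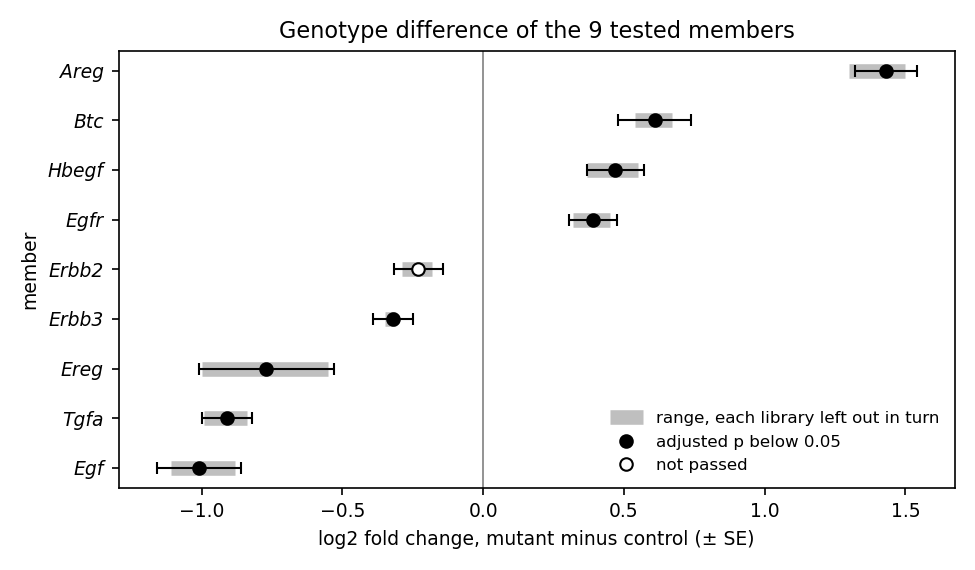
Log2 fold change of mutant minus control for the 9 tested members, with points and bars at the estimate ± SE and grey bars for the range when each library was left out in turn. Areg lies at 1.43 and Egf at -1.01, while the grey bar of Ereg is the widest, from -1 to -0.55, and the open point of Erbb2 at -0.23 did not pass.

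Egfr encodes the receptor that all 7 ligands bind. Its transcript stood at 55.8, 60.6 and 60.2 CPM in controls and at 69.7, 77.2 and 84.6 CPM in mutants. All mutants were higher, with mutant 3 the highest. Means were 58.9 ± 2.68 and 77.1 ± 7.46 CPM, and Egfr rose by 0.39 on the log2 scale (SE 0.084, adjusted p = 0.00396). Without mutant 1 and mutant 2 it was 0.49.

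The partner receptors went the other way or did not pass. Erbb3 held 357, 342 and 353 CPM in controls and 274, 274 and 292 CPM in mutants, and the groups were well apart. The log2 fold change of Erbb3 was -0.32 (SE 0.071, adjusted p = 0.00448), and -0.29 without mutant 1 and mutant 2. Erbb2 held 283, 256 and 256 CPM in controls and 206, 226 and 246 CPM in mutants. Mutant 3 came close to the lower controls, and the log2 fold change of -0.23 (SE 0.087) missed the threshold (adjusted p = 0.0535). The call for Erbb2 depended on the setting: it passed with DESeq2 (adjusted p = 0.0433) and limma-voom (adjusted p = 0.0422). It did not pass in edgeR with library totals only (adjusted p = 0.251) or with the replicate block (adjusted p = 0.115). Without mutant 1 and mutant 2 its log2 fold change was -0.14.

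Levels can be set between genes once divided by exon length. Among receptors, Erbb3 and Erbb2 far exceeded Egfr: controls averaged 58.3 ± 1.33, 50.9 ± 3.02 and 5.2 ± 0.236 CPM per kilobase (SD, n = 3). In mutants the levels per kilobase were 46.5 ± 1.75, 43.3 ± 3.89 and 6.81 ± 0.659. The ratio of Erbb3 to Egfr on this scale was 12, 10.6 and 11 in controls and 7.4, 6.69 and 6.5 in mutants, so it was lower in every mutant library. The share of Egfr in the receptor sum was 4.55% ± 0.352 in controls and 7.03% ± 0.251 in mutants. That sum was 114 ± 3.82 and 96.7 ± 6.14 CPM per kilobase.

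Among ligands, Areg was the most abundant per kilobase in both groups. It made up 59.3%, 62.6% and 62.5% of the summed level per kilobase of the 7 ligands in controls, and 84.2%, 82.3% and 85.0% in mutants. Tgfa, the next in controls, went from 16.6% ± 1.54 to 4.43% ± 0.285 of the sum. The whole sum was 31.5, 40.2 and 39.3 CPM per kilobase in controls and 72.2, 72.2 and 76.0 in mutants. Without Areg, the other 6 ligands summed to 14.2 ± 1.2 in controls and 11.9 ± 0.817 in mutants, so the higher ligand sum of mutants came from Areg. These shares rest on the merged exon length, which for Egf is 11275 bases although its longest coding transcript in GENCODE M21 has 4761. With lengths of the longest coding transcripts, the share of Areg was 49.6% in controls and 75.3% in mutants.

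**Figure D3:**
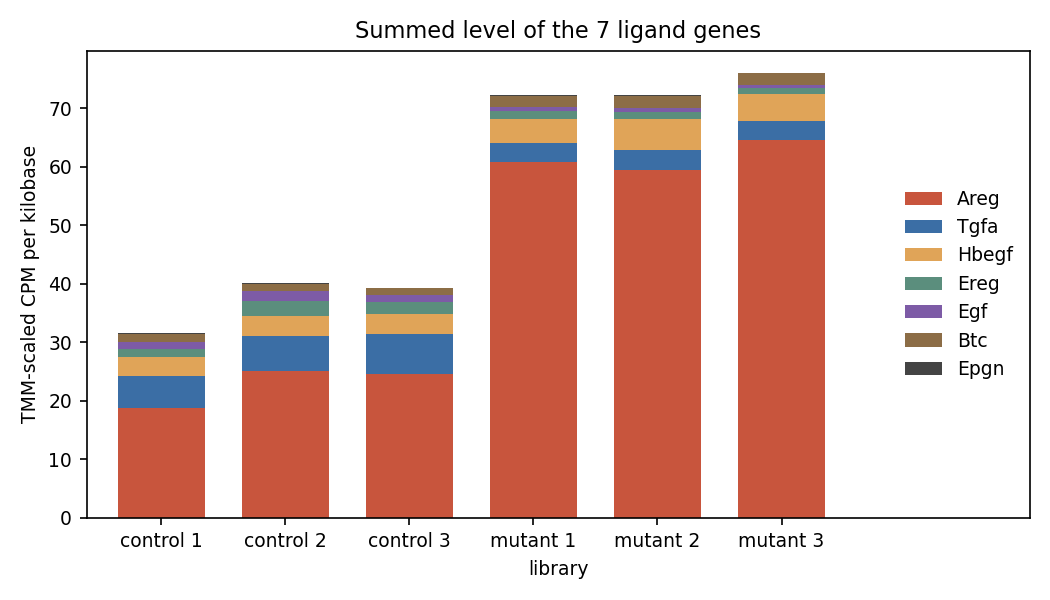
Summed level of the 7 ligand genes in each library, in TMM-scaled CPM per kilobase of exon, stacked by gene. Mutant bars reach 72.2 to 76.0 and control bars 31.5 to 40.2, and the red segment of Areg is the larger part of each bar.

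The order of the members per kilobase also differed between the groups. In controls it was Erbb3, Erbb2, Areg, Tgfa, Egfr, Hbegf, Ereg, Egf, Btc and Epgn. Neighbours in that order were apart in every library, except that Ereg overlapped Egf and Egf overlapped Btc. In mutants it was Areg, Erbb3, Erbb2, Egfr, Hbegf, Tgfa, Btc, Ereg, Egf and Epgn, where Erbb3 and Erbb2 overlapped. With lengths of the longest coding transcripts, Hbegf stood above Egfr in both groups and Egf above Ereg, and in controls Btc was level with Ereg.

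Of the ligand genes, 4 lie together on chromosome 5 within 375.5 kilobases (GRCm38). Epgn (91027464 to 91035215), Ereg (91074622 to 91093646) and Areg (91139599 to 91148432) are on the plus strand and Btc (91357261 to 91402994) is on the minus strand. Only 46 kilobases separate the end of Ereg from the start of Areg. Across that gap Ereg had a log2 fold change of -0.77 and Areg 1.43. The ratio of Areg to Ereg per kilobase was 14, 9.88 and 12.2 in controls and 46.1, 50.2 and 67.7 in mutants, so the ranges of this ratio were far apart. The exons of Areg and Btc overlap no other annotated gene, and those of Ereg overlap Gm19610 on the opposite strand, which strand-specific counting keeps apart.

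**Figure D4:**
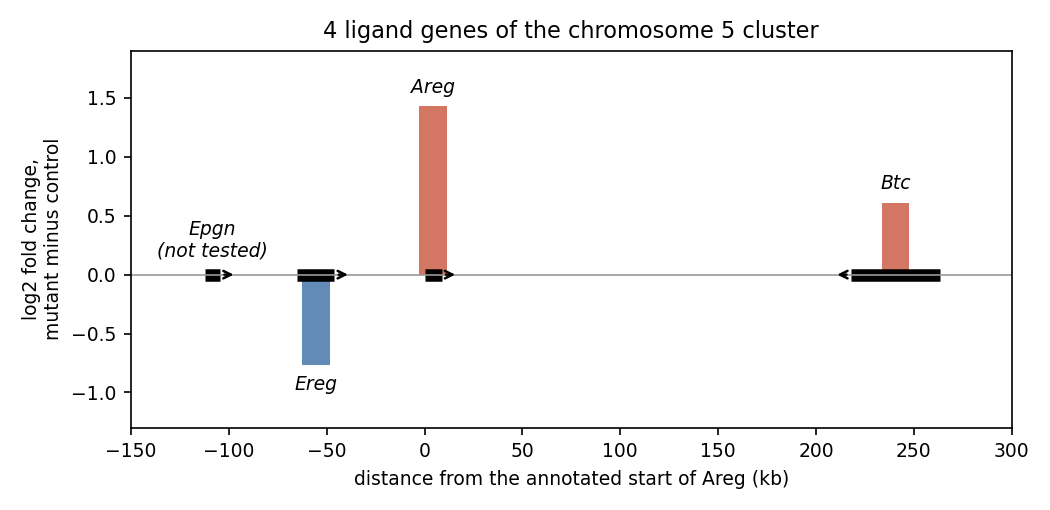
Map of the 4 ligand genes of chromosome 5 by distance from the annotated start of Areg in kilobases, with black bars for genes, arrows for their strand and columns for the log2 fold change of mutant minus control. Ereg points down at -0.77, Areg up at 1.43 and Btc up at 0.61, while Epgn was not tested.

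RefSeq start sites on GRCm38.p6 gave promoter windows for 7 of the 10 members. The 250 bases before the start are shown for the cluster genes Areg, Btc and Epgn and for Tgfa, which fell, to set the upstream sequence of a ligand that rose beside others. Letters run 5′ to 3′ on the gene's strand, and capitals mark the motifs found. The windows are chr5:91139349-91139598 (plus) for Areg, chr5:91402995-91403244 (minus) for Btc, chr5:91027267-91027516 (plus) for Epgn and chr6:86194972-86195221 (plus) for Tgfa.
Areg: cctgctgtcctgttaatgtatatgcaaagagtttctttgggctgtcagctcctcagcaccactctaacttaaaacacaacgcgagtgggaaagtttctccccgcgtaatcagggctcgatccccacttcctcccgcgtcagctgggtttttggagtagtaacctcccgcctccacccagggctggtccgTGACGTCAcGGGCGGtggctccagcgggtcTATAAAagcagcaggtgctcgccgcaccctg
Btc: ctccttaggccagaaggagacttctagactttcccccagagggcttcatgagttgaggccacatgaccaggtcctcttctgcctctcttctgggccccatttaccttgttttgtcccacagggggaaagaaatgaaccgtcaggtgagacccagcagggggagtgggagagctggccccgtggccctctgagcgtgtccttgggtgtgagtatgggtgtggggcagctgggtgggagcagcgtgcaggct
Epgn: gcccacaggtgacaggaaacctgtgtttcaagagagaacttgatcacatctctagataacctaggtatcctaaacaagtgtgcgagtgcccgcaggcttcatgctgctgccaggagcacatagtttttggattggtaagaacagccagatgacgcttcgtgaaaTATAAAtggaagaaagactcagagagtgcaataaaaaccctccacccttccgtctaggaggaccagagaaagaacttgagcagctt
Tgfa: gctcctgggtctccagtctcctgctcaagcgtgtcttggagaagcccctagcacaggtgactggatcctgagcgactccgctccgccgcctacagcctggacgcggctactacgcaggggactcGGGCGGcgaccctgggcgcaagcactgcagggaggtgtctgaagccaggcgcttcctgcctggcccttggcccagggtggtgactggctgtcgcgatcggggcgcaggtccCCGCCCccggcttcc

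The Areg window held a cyclic AMP response element, TGACGTCA, from 61 to 54 bases before the start. A GC box (GGGCGG, or CCGCCC on the other strand) followed at 52 to 47 bases and a TATA box (TATAAA, sense strand) at 31 to 26 bases. Of 32851 windows of this length, 1.55% held that response element, 32.7% a GC box and 7.59% a TATA box. No motif overlapped another. The Epgn window held a TATA box at 86 to 81 bases before its RefSeq start. The annotated start of Epgn in the count files, 91027464, lies inside this window, so the box is nearer to that start. The last bases of the Epgn window are therefore within the annotated gene. The Tgfa window held 2 GC boxes. In the Btc window none of the motifs searched was found. The other motifs searched, on both strands, were AP-1 (TGACTCA, in 4.46% of windows), TEAD (GGAATG, 12.6%), TCF (CTTTGA, 13.8%) and NF-kB by its consensus (0.225%), and none of them was in the 4 windows printed. These are matches of letters and say nothing of factors bound.

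The letters GGACT, the core of the sequence in which N6-methyladenosine is commonly placed, were counted in the longest coding transcript of each member. Areg had 3 in 1215 bases, or 2.47 per kilobase, and Hbegf 6 in 2375 bases, or 2.53 per kilobase. These stood at percentiles 94.6 and 95.0 of 21405 protein-coding genes, whose median was 1.02 per kilobase. Ereg had 1 in 4128 bases (0.242 per kilobase, percentile 11.9), and Btc, which rose, had 0.695 per kilobase (percentile 30.9). Egf, which fell, had 1.68 (percentile 80.6) and Tgfa 0.884 per kilobase (percentile 42.1). Egfr, Erbb2 and Erbb3 had 1.18, 1.2 and 1.5 per kilobase (percentiles 59.9, 60.9 and 74.6). Members that rose thus ran from 0.695 to 2.53 per kilobase and members that fell from 0.242 to 1.68. These libraries do not measure methylation.

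Over the 6 libraries, the genes whose centred log2 CPM profile lay closest to that of Areg were Ythdf2, Crybg3 and Ano6, at root mean square distances of 0.0629, 0.0879 and 0.0915 among 10720 genes of at least 5 CPM. Ythdf2 held 44.1, 52.4 and 51.7 CPM in controls and 138, 128 and 145 CPM in mutants. For Egf the closest were Insrr, Itpr1 and Rassf4, at 0.0631, 0.0650 and 0.0703. Insrr held 9.44, 11.5 and 10.3 CPM in controls and 5.64, 5.28 and 4.38 CPM in mutants. The libraries fell into separate sets by genotype, so the points of a profile are not independent of one another.

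The rest of the pathway was described by 75 genes in 6 lists, of which 73 were tested. In all, 22 rose, 24 fell and 27 did not pass, so 63.0% passed, against 46.3% of all tested genes. Their median log2 fold change was -0.01 and that of all tested genes 0.01.

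Neuregulins, the ligands of ERBB3 and ERBB4, were scarce and split. Nrg1 held 0.285, 0.356 and 0.613 CPM in controls and 1.86, 2.28 and 1.23 CPM in mutants, with a log2 fold change of 2.09 (adjusted p = 0.0014). Nrg4 fell from 1.66 ± 0.256 to 0.556 ± 0.322 CPM (-1.60 on the log2 scale, adjusted p = 0.00661). Nrg2 had a log2 fold change of 1.2 (adjusted p = 0.0441), with overlapping groups and a call lost in 12 of 16 alternatives. Erbb4, the remaining receptor of the family, was at most 0.602 CPM in any library and was not tested.

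Of 10 genes tied to ligand release, proteases and iRhoms among them, 4 rose, 2 fell and 4 missed the threshold. Their median was 0.14 on the log2 scale. The called share was 60%, against 46.3% of all tested genes, of which 23.5% rose and 22.8% fell. Adam17, the main protease that frees amphiregulin and TGF-alpha, rose slightly from 48.9 ± 1.09 to 56.8 ± 1.35 CPM (log2 fold change 0.22, adjusted p = 0.019). Rhbdf2, the iRhom2 gene whose product guides ADAM17 to the surface, rose from 21.1 ± 0.269 to 32.0 ± 1.08 CPM (0.60, adjusted p = 0.000118). Rhbdl2, a rhomboid protease, rose by 0.59 and Adam8 by 2.25 on the log2 scale, the latter from only 1.06 ± 0.201 CPM. Adam15 fell from 50.6 ± 5.92 to 32.0 ± 4.78 CPM. Adam10, the main sheddase of EGF and betacellulin, stood at 136 ± 7.13 and 143 ± 4.47 CPM and did not pass (adjusted p = 0.437).

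Genes that restrain the receptors divided, 4 up and 5 down of 12, with a median of 0.13. The called share was 75%, against 46.3% of all tested genes, of which 23.5% rose and 22.8% fell. Lrig1, Lrig2 and Lrig3, whose family includes the ErbB inhibitor LRIG1, all fell, with log2 fold changes of -0.36, -0.38 and -0.33. The ubiquitin ligase genes Cbl and Cblb, which send active EGFR to degradation, fell on the log2 scale by 0.32 and 0.63, while their relative Cblc rose by 0.42. Sh3kbp1, which encodes an adaptor of CBL in receptor uptake, rose from 17.8 ± 1.55 to 56.9 ± 2.23 CPM (log2 fold change 1.67, adjusted p = 6.24e-07). Socs5 and Socs4 rose by 0.84 and 0.46. Errfi1, the feedback inhibitor MIG6, stood at 72.6 ± 4.96 and 89.9 ± 17.7 CPM and did not pass (adjusted p = 0.078).

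Of 18 genes of the relay from the receptors to ERK, 7 fell, 1 rose and 10 missed the threshold, with a median of -0.17. The called share of 44.4% was near the 46.3% of all tested genes, of which 22.8% fell and 23.5% rose. Gab1, a docking protein, fell from 41.0 ± 2.09 to 28.3 ± 2.11 CPM. Araf, a kinase gene of the RAF family, fell by 0.33 on the log2 scale. Hras was the gene that rose, from 46 ± 3.92 to 70.5 ± 1.03 CPM (log2 fold change 0.62, adjusted p = 0.000165).

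In the PI3K, AKT, PLC and STAT branch 3 of 14 genes rose and 6 fell, with a median of 0.01. The called share was 64.3%, against 46.3% of all tested genes, of which 23.5% rose and 22.8% fell. Pik3r2 and Pik3r1, which encode regulatory subunits of PI3K, fell on the log2 scale by 0.52 and 0.46, and Pdpk1, the kinase that activates AKT, fell by 0.58.

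Of 16 genes that respond to ERK signalling 8 rose, 3 fell and 5 did not pass, and their median was 0.24. Of all tested genes 23.5% rose and 22.8% fell, and the list was not tested against them. Dusp4, an ERK phosphatase, held 7.76, 8.01 and 7.45 CPM in controls and 44.5, 39.5 and 44.4 CPM in mutants (log2 fold change 2.47, adjusted p = 9.25e-08). Phlda1 rose from 47.4 ± 4.28 to 93.9 ± 9.51 CPM. Etv5, an ETS factor gene, fell from 32.7 ± 3.38 to 11.4 ± 3.25 CPM (log2 fold change -1.53, adjusted p = 0.000114), and Spred2 fell by 0.54. Dusp6, a phosphatase gene widely used as a readout of ERK activity, stood at 32.6 ± 0.976 and 29.8 ± 4.5 CPM and did not pass (adjusted p = 0.325). Transcript levels do not measure ERK activity itself.

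**Figure D5:**
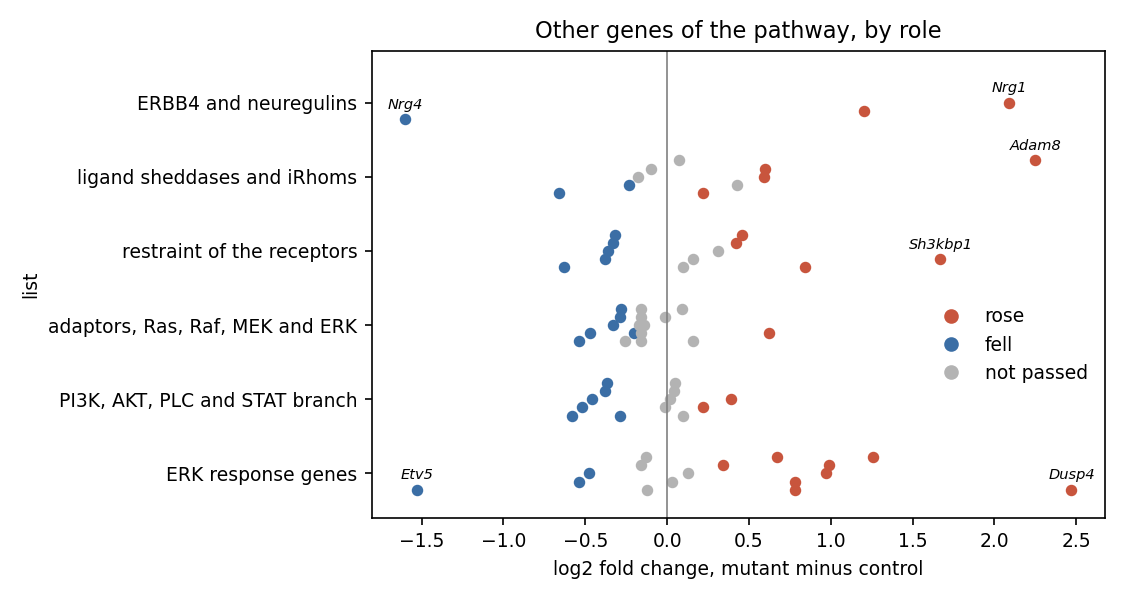
Log2 fold change of mutant minus control for 71 of the tested pathway genes, 1 point per gene and 1 row per list, spread vertically only for visibility, with red for genes that rose, blue for genes that fell and grey for those that did not pass. Dusp4 at 2.47 lies farthest to the right, and most genes of the relay to ERK lie to the left of 0.

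Markers of cells other than epithelium changed in the same libraries. For the counts below, 23.5% of all tested genes rose and 22.8% fell. Of 10 genes of macrophages and dendritic cells 9 rose and 1 fell. Their sum was 18.8 to 25.6 CPM in controls and 47.5 to 67.8 CPM in mutants, with Csf1r at 2.06 to 2.28 and 7.31 to 12.1 CPM. The gene that fell was C1qa, the highest of the list in every control. It held 10.7, 4.48 and 7.87 CPM in controls and 3.56, 2.96 and 2.13 CPM in mutants. Of 5 neutrophil genes 4 rose, with sums of 9.04 to 13.1 and 13 to 39.7 CPM. Most of these sums was Ly6g, whose groups overlapped (8.22 to 12.9 CPM in controls and 11.1 to 34.3 CPM in mutants). The other neutrophil genes that rose, S100a8, S100a9 and Csf3r, were near the floor in controls, at 0.228 CPM or less. In mutants they held 0.387 to 2.96 CPM. Lymphoid genes summed to 10.8 to 13.3 and 14.1 to 20.1 CPM, with 2 of 7 tested higher. Most of that was Ptprc, at 7.42 to 8.93 CPM in controls and 8.23 to 12.8 CPM in mutants, which did not pass. Endothelial genes summed to 7.63 to 8.65 and 11.2 to 14.1 CPM, with 1 of 3 tested higher. Mast cell and basophil genes summed to 5.28 to 9.22 and 4.06 to 8.12 CPM, with 1 of 3 tested lower and Fcer1a at 0 in all controls. Of 6 fibroblast genes 4 fell, with sums of 194 to 226 CPM in controls and 84.6 to 102 CPM in mutants, and of 4 smooth muscle genes 3 fell, with sums of 56.1 to 66.2 and 47.4 to 50.3 CPM. Of 5 crypt stem cell genes 3 fell, Lgr5 among them, and 1 rose, with sums of 166 to 168 and 113 to 122 CPM. Several ErbB ligands are also made by immune and stromal cells, and the part of such cells in the values of Areg, Hbegf, Ereg and Nrg1 was not tested.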

How the data were processed

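Polyadenylated RNA of 3 control and 3 mutant libraries was sequenced, per the labels' protocols, from a SMARTer kit that keeps the strand. The submitters' processing notes name Trim Galore 0.6.5, STAR 2.6.1d, featureCounts, edgeR and the build GRCm38. The deposited values are raw fragment counts per gene, made by the authors with featureCounts 1.6.4 on GENCODE M25 and the strand of read 1, per the file headers. The header's command sets no counting of multi-mapping reads. Every row named a gene.

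The fit used edgeR 4.0.16 in R 4.3.3, with filterByExpr (minimum count 10, minimum total 15), TMM scaling and the 2-sided quasi-likelihood F test with genotype as the only term. The Benjamini-Hochberg adjustment covered the 18539 genes tested. The threshold was an adjusted p of 0.05, and "rose", "fell" and "passed" refer to it. The SE is the log2 fold change divided by the square root of F. Levels between genes use CPM per kilobase of merged exon length from the deposited files. Likeness between genes used log2 CPM with a prior count of 2.

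The members, lists and motifs were chosen with earlier results of these data known. From each pathway list the text names up to 4 tested genes with the smallest p, and some of these are not reported here. Adam17, Adam10, Lrig1, Lrig2, Lrig3, Cbl, Cblc, Errfi1, Dusp6 and Erbb4 were named after their values were seen. Lists were described by counts and medians, with no list test.

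A depth of 24181631 counts makes 3 counts equal to 0.124 CPM, and the deepest library makes it 0.0853 CPM. This floor covers counting error only, since PCR reads without molecular identifiers are not independent molecules. Between libraries of a group the chi-square per gene was 14 to 90.8, far above sampling noise, and each was counted as a replicate. The design text names 3 mouse pairs of control and mutant, but the labels do not tie a given control to a given mutant. Alternatives used DESeq2 1.42.0, limma 3.58.1 (voom), 3 other scalings, 2 other filters, a null of 1.5-fold, a threshold of 0.01, a replicate block and left-out libraries. The fits were tested on simulated data, in which far fewer genes changed than were called here. That simulation therefore does not cover a change of this breadth.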

Additional observations from a re-analysis of the deposited data

How the results depend on the processing

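Directions of the 9 tested members were the same in all 17 alternatives, and 139 of 153 values kept their side of the threshold. Against a null of 1.5-fold change 2747 genes and 3 members (Areg, Egf and Tgfa) were called, where 14.8% of all genes passed. Under that null the calls of Ereg (-0.77, adjusted p = 0.341), Btc (0.61), Hbegf (0.47), Egfr (0.39) and Erbb3 (-0.32) were lost. At a threshold of 0.01 Ereg (-0.77) was not called. With single libraries left out, the log2 fold change of Ereg ran from -1 to -0.55 and that of Erbb2 from -0.29 to -0.18, and 7 or 8 members and 7057 to 8571 genes were called. Erbb2 became called with upper quartile scaling (-0.24, adjusted p = 0.0394), with genes of low count kept (-0.27, adjusted p = 0.0162), with DESeq2 (-0.23), with limma-voom (-0.23) and without mutant 3 (-0.29). In the remaining alternatives Erbb2 was not called, for example with library totals only (-0.16, adjusted p = 0.251). The cause was not tested.

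Same-numbered libraries did not deviate together (correlations of -0.12, -0.065 and -0.138), so the numbers were not taken as pairs. With the replicate block 7403 genes were called and the 8 members called were the same, with Areg at 1.44. In CPM with no length, the share of Areg in the ligand sum was 24.4% in controls and 53.4% in mutants, and that of Tgfa 35.1% and 15.1%. With the longest coding transcript as length, an alternative chosen after seeing the data, the shares were 49.6% and 75.3% for Areg and 19.2% and 5.70% for Tgfa. Of the named pathway genes, 365 of 390 values kept their side. The fit without mutant 1 and mutant 2 leaves a lone mutant library, which is assumed to vary like the controls.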
